A study of Mus musculus with 2 samples.

Results

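The alpha and beta tubulin genes described here are 10 genes taken from a fixed list of names: 4 alpha tubulins (Tuba1a, Tuba1b, Tuba1c, Tuba4a) and 6 beta tubulins (Tubb2a, Tubb2b, Tubb3, Tubb4a, Tubb4b, Tubb5). They are 10 of 43346 Ensembl gene rows in the deposited tables, and all 10 names matched a row. RNA was sequenced in 2 libraries, each from an area of about 8000 square microns cut by laser from layer 5 of the cerebral cortex of a wild-type male C57Bl6 mouse (strain B6NCrl in the source name) aged 8 months. The starting material is given as 50 cells, no treatment is named, and the 2 areas, called replicate 1 and replicate 2, form a single group. The labels number them as biological replicates but give both the same donor, so each SD below (n = 2) measures the spread between these areas, which may come from 1 animal. No condition was contrasted and each area is 1 library, so no test of a difference was possible and no p-value is given.

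Microtubules are hollow polymers of a dimer made of an alpha and a beta tubulin, and they fill the axons and dendrites of neurons, where they bear transport. Mammals carry several genes, called isotypes, for each subunit. Their products are nearly the same in the globular body and differ most in the acidic C-terminal tail, which projects from the microtubule surface and takes up the removal and return of a final tyrosine, glutamylation and other modifications. Tuba1a and Tubb2b are known for high levels in developing neurons, Tubb3 is widely used as a neuronal marker, and Tubb4a is known from neurons and from myelinating oligodendrocytes.

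The ends of the coding sequences are shown because the tails set the isotypes apart and because the last codon sorts them into classes used below. For 8 of the 10 genes a line gives the last 60 coding bases, stop codon included, from the GENCODE M21 transcripts of GRCm38. The capitals mark the last sense codon, and each stretch lies within 1 exon, in the coding part.
Tuba1c (chr15:99037950-99038009, plus strand): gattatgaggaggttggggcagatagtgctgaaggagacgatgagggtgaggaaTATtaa
Tuba4a (chr1:75215622-75215681, minus strand): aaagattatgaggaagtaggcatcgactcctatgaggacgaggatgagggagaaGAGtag
Tubb2a (chr13:34074468-34074527, minus strand): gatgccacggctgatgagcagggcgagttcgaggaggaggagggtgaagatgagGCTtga
Tubb2b (chr13:34127471-34127530, minus strand): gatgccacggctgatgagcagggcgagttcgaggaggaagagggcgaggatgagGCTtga
Tubb3 (chr8:123421623-123421682, plus strand): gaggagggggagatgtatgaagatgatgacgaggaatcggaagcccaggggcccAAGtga
Tubb4a (chr17:57080690-57080749, minus strand): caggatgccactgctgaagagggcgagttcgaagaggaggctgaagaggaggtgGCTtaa
Tubb4b (chr2:25222308-25222367, minus strand): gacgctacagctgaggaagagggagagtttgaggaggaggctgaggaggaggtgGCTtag
Tubb5 (chr17:35834982-35835041, minus strand): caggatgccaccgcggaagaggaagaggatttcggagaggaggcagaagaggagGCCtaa

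Tuba1a, Tuba1b and Tuba1c end in a tyrosine codon. Tuba4a ends in a glutamate codon, so its product is made without the final tyrosine that the other alpha members carry. Tubb3 ends in a lysine codon and the other 5 beta members in an alanine codon. In each of the 10 genes, 10 or 11 of the last 19 sense codons encode glutamate or aspartate. Tuba1a and Tuba1b, neighbours on chromosome 15, were 98.3% identical over their coding sequences and differed at 2 positions of the translated products. Tubb2a and Tubb2b, neighbours on chromosome 13, were 96.5% identical over their coding sequences and also differed at 2 translated positions. Tubb4a and Tubb4b were only 83.2% identical in coding bases yet differed at 7 translated positions. Tubb3 stood farthest from the other beta members, with 38 to 42 differing positions.

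This likeness limits how far reads can be told apart. Of all windows of 100 bases in the leading transcript of each gene, 65.6% of those of Tuba1b, 53.4% of Tuba1c, 50.0% of Tuba1a, 35.9% of Tubb2a, 30.6% of Tubb4b, 27.0% of Tuba4a and 26.1% of Tubb2b also occurred, on either strand, in another gene of the tables. Tuba1b shared 799 windows with Tuba1c and 448 with Tuba1a, and Tubb2a shared 543 with Tubb2b. The shared windows of Tuba4a were all with Stk16, a kinase gene that overlaps it on the opposite strand. Tubb3, Tubb4a and Tubb5 shared no window, so by this measure the levels of the other 7 genes are the less certain ones. The deposited posterior SD of the expected count, the uncertainty of dividing shared reads, was 71.6 and 74.7 counts for Tuba1a of 28838 and 35385 counts in replicates 1 and 2. For Tubb2b it was 10.8 and 7.15 counts, 4.54% and 7.26% of its count. As a percent of the count it was small for Tubb2a (0.068% and 0.039%), Tuba4a (0.0086% and 0.028%) and Tubb4b (0.018% and 0.015%).

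Libraries held 26059117 and 28276843 expected counts, of which 7.19% and 7.94% fell on spike-in RNA and 5.77% and 5.08% on mitochondrial genes. At 1 TPM or more, 11808 and 11651 nuclear protein-coding genes were listed. All 8 neuronal markers of a fixed list, Snap25 and Uchl1 among them, were above 1 TPM in both areas, and of the 4 dividing-cell markers Top2a and Cdk1 had no count in either, Mki67 had 5 and 1 counts and Ccnb1 was at 0.94 and 1.25 TPM. The areas differed in their make-up: in replicates 1 and 2 the summed TPM of 10 oligodendrocyte markers was 593 and 1172, that of 8 microglial markers 263 and 88.0, and that of 7 GABAergic interneuron markers 1583 and 3112, and Sst was higher in replicate 2 while Pvalb and Gad1 were higher in replicate 1. In such bulk areas, fewer cells of a type and less RNA per cell cannot be told apart.

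Of the 10 tubulin genes, 8 were abundant and 2 were near or below a few TPM. TPM is a level scaled per length of transcript to a fixed sum over the library, so it can be compared between genes. The 8 abundant genes lay between 281 and 868 TPM in replicate 1 and between 355 and 1032 TPM in replicate 2. They ranked from 64 to 415 among 21461 nuclear protein-coding genes. All 10 genes together reached 4105 and 5153 TPM in replicates 1 and 2 (4629 ± 741, SD, n = 2). This was 0.651% and 0.809% of the TPM of nuclear protein-coding genes, and by expected counts 0.585% (exact Clopper-Pearson 95% interval 0.582 to 0.588) and 0.707% (0.704 to 0.710) of all counts. Intervals of this kind cover counting error only.

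Among the alpha genes Tuba1a (ENSMUSG00000072235.5, chr15:98949837-98953703, minus strand) was the highest, at 868 TPM in replicate 1 and 1032 TPM in replicate 2 (950.0 ± 116, SD, n = 2). Tuba1b (chr15:98931425-98934565, minus strand), a broadly expressed isotype, stood at 708 and 838 TPM (773 ± 91.9). Tuba4a (chr1:75214228-75219865, minus strand), the isotype whose coding sequence lacks the last tyrosine codon, stood at 632 and 792 TPM (712 ± 113). Tuba1a was above Tuba1b and Tuba4a in each area and its range over the areas did not overlap that of either, while the ranges of Tuba1b and Tuba4a overlapped. Tuba1c (chr15:99029891-99038110, plus strand) was listed at 0.090 and 0.15 TPM. Its expected counts were 3.76 and 6.46 with posterior SDs of 3.30 and 3.94 counts, against a floor of 3 counts, and 1006 of its 1883 windows occur in other genes of the tables, so it was at the limit of what can be counted.

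Among the beta genes 3 had close means. Tubb4a (ENSMUSG00000062591.5, chr17:57080066-57087782, minus strand) stood at 411 TPM in replicate 1 and 661 TPM in replicate 2 (536 ± 176, SD, n = 2). Tubb2a (chr13:34074274-34078007, minus strand), a major beta isotype of adult brain, stood at 493 and 554 TPM (524 ± 43.0). Tubb4b (chr2:25222160-25224702, minus strand), a broadly expressed isotype, stood at 418 and 548 TPM (483 ± 92.0). The ranges of these 3 genes overlapped, and the order of Tubb4a and Tubb2a was reversed between the areas: the ratio of Tubb4a to Tubb2a was 0.834 in replicate 1 and 1.19 in replicate 2. Tubb3 (chr8:123411424-123422015, plus strand) stood lower, at 289 and 371 TPM (330 ± 58.1). Tubb5 (chr17:35833921-35838306, minus strand), an isotype common to most tissues, stood at 281 and 355 TPM (318 ± 52.6). Tubb3 and Tubb5 overlapped each other and both lay below the range of Tubb4b. In the order of all 10 means, Tuba1a, Tuba1b, Tuba4a, Tubb4a, Tubb2a, Tubb4b, Tubb3, Tubb5, Tubb2b and Tuba1c, the ranges of neighbours were apart between Tuba1a and Tuba1b, between Tubb4b and Tubb3, and on each side of Tubb2b, and overlapped elsewhere.

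Tubb2b (ENSMUSG00000045136.5, chr13:34126748-34130466, minus strand) stood far below the other beta members, at 6.05 TPM in replicate 1 and 2.43 TPM in replicate 2 (4.24 ± 2.56, SD, n = 2). The authors' deposited intervals for it were 5.05 to 6.86 TPM and 1.85 to 3.001 TPM, each covering uncertainty within 1 library only. Its expected count was 1.504% and 0.538% of that of its near copy Tubb2a. The genes that mark immature neurons were low as well: Dcx, a microtubule-binding protein of migrating neurons, was at 8.16 and 5.32 TPM, and Igfbpl1 had no count in either area.

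**Figure D1:**
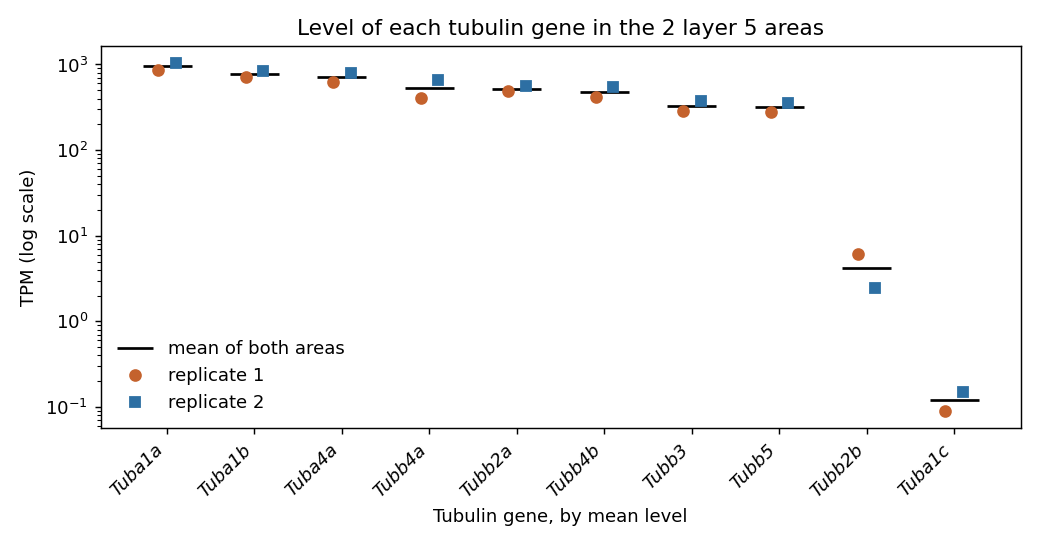
Level of each tubulin gene in TPM on a log scale, with circles for replicate 1, squares for replicate 2 and a line at the mean of both areas. The 8 abundant genes lie between 281 and 1032 TPM, Tubb2b lies at 2.43 to 6.05 TPM, and Tuba1c lies at 0.090 and 0.15 TPM.

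Isotype shares are the percent of a gene in the summed TPM of its class, and the widest spreads between the areas were those of the beta genes Tubb2a and Tubb4a. Tuba1a held 39.3% and 38.8% of alpha tubulin TPM in replicates 1 and 2 (39.0 ± 0.38, SD, n = 2). Tuba1b held 32.1% and 31.5% (31.8 ± 0.43), and Tuba4a held 28.6% and 29.7% (29.2 ± 0.80). Tuba1c held 0.0041% and 0.0056%. Sorted by their last codon, the alpha genes that end in a tyrosine codon held 71.4% and 70.3% of alpha tubulin TPM (70.8 ± 0.80), the rest being Tuba4a.

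The beta pool had no single dominant gene. Tubb2a held 26.0% in replicate 1 and 22.2% in replicate 2 (24.1 ± 2.65, SD, n = 2), and Tubb4a held 21.7% and 26.5% (24.1 ± 3.42). These shares crossed, with Tubb2a first in replicate 1 and Tubb4a first in replicate 2. Tubb4b held 22.0% in each area. Tubb3, the only beta member with a lysine codon at the end, held 15.2% and 14.9% (15.1 ± 0.23), and Tubb5 held 14.8% and 14.2% (14.5 ± 0.38). Tubb2b held 0.319% and 0.0976%. Counted in reads instead of per length, both shares differed between the areas beyond counting error: Tubb4a made up 25.3% (exact 95% interval 24.9 to 25.6) and 30.5% (30.2 to 30.8) of beta tubulin counts, and Tubb2a 21.1% (20.8 to 21.4) and 17.8% (17.6 to 18.1). By fewer percentage points, so did the count shares of Tubb3, Tubb5, Tubb2b, Tuba1a, Tuba1b and Tuba4a in their classes. For Tubb2b the count share was 0.318% and 0.0960%. How many of all genes differ so was not counted, and the chi-square over 14067 genes was 68.5 per degree of freedom. Differences beyond counting error are therefore not read as particular to tubulins. Only the intervals of Tubb4b and of Tuba1c overlapped between the areas. By counts, which favour long transcripts, Tubb4a was above Tubb2a in each area.

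**Figure D2:**
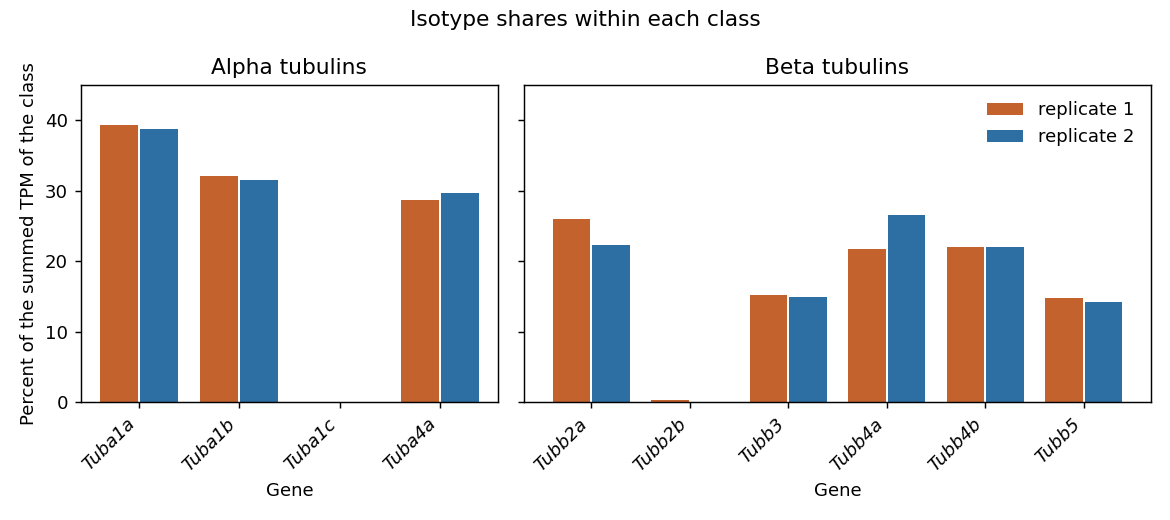
Share of each gene in the summed TPM of the alpha class (left) and of the beta class (right), in percent, with a bar for each area. The alpha bars of replicates 1 and 2 stand nearly level, while Tubb2a stands at 26.0% and 22.2% and Tubb4a at 21.7% and 26.5% in replicates 1 and 2.

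Subunits of each class enter the dimer in equal number, and the summed levels of the classes were near each other. Alpha tubulin TPM was 2207 and 2662 in replicates 1 and 2 (2435 ± 322, SD, n = 2), and beta tubulin TPM was 1898 and 2491 (2194 ± 419). The ratio of beta to alpha was 0.860 and 0.936 (0.898 ± 0.054), with the alpha sum higher in each area. On expected counts the mean ratio was 1.01.

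At the transcript level 9 of the 10 genes were carried by a leading transcript with at least 98% of the gene's TPM. Of these 9 genes, 5 were listed with a single transcript, so their share was fixed in advance. Tuba4a was the exception among the 24 transcripts listed. Tuba4a-201 held 73.4% in replicate 1 and 70.5% in replicate 2 (72.0 ± 2.04, SD, n = 2), Tuba4a-206 held 17.1% and 18.2% (17.7 ± 0.78), and Tuba4a-205, annotated as retaining an intron, held 7.00% and 6.34% (6.67 ± 0.47). Tuba4a-202 held 2.08% and 4.43% (3.26 ± 1.66). In the GENCODE M21 annotation Tuba4a-202 is the one with annotated start and stop codons around the full 448 codons. Tuba4a-201 begins with another first exon, has no annotated start codon, and shares the 3 downstream coding exons and the stop codon with Tuba4a-202. Tuba4a-206 has 2 exons and an open frame of 75 codons with no annotated start codon. The order of these 4 transcripts was the same in each area, and the split rests on reads over the few parts where they differ: the deposited posterior SD of the count of Tuba4a-201 was 173.5 and 199.5 counts, of 19792 and 24659. For Tuba4a-206 it was 166 and 180.2 counts, of 2575 and 3554, and for Tuba4a-202 it was 68.4 and 108 counts, of 776 and 2141, so the minor transcripts are known less well.

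**Figure D3:**
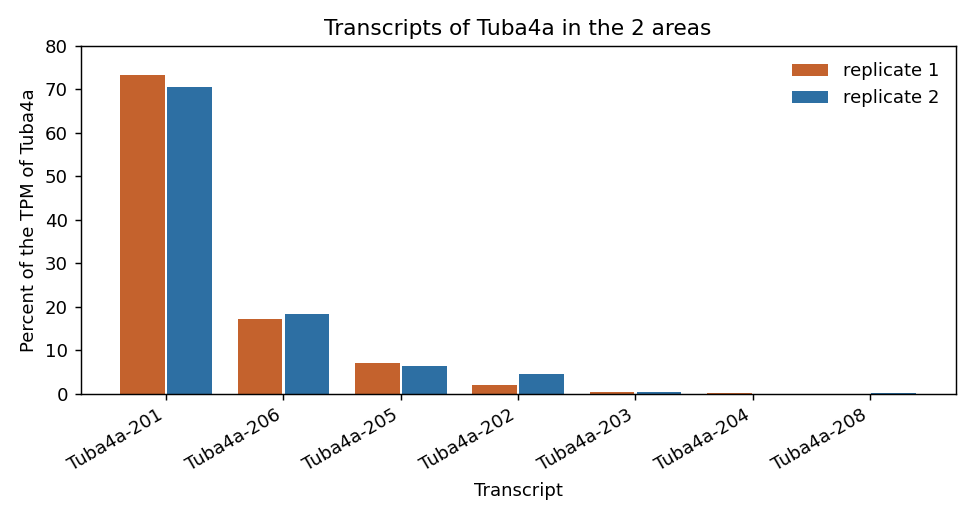
Percent of the TPM of Tuba4a held by each listed transcript above 0, with a bar for each area. Tuba4a-201 leads with 73.4% and 70.5%, Tuba4a-206 follows with 17.1% and 18.2%, and the fully annotated Tuba4a-202 holds 2.08% and 4.43%.

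Neighbouring genes may bear on some of these levels, and the strand setting of the library is not given in the sources used here. Stk16, which overlaps Tuba4a on the opposite strand, was at 49.1 and 32.7 TPM in replicates 1 and 2, and reads from the overlap cannot be told apart without strand. The deposited posterior SD of the Tuba4a count was nevertheless only 2.06 and 8.75 counts, of 23861 and 31206. Gm20388, which overlaps Tubb3 on the same strand, was at 5.61 and 1.84 TPM. Tubb3 shared no window with another gene of the tables, and the posterior SD of its count was 0 in each area. The 9 processed pseudogenes that share tubulin windows and have a row in the tables, 6 of alpha and 3 of beta type, summed to 5.72 and 6.95 TPM.

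Between the areas, the 8 tubulin genes at a mean of at least 20 TPM were all higher in replicate 2 by TPM, though not Tubb2a per spike-in count, with a median log2 ratio of TPM (replicate 2 over replicate 1) of 0.33. Over the 4408 nuclear protein-coding genes at that mean with a summed count of at least 100, 55.7% were higher in replicate 2 and the median log2 ratio was 0.050. The log2 ratios of the 8 genes ran from 0.17 for Tubb2a to 0.68 for Tubb4a, with Tuba1b at 0.24, Tuba1a at 0.25, Tuba4a at 0.33, Tubb5 at 0.34, Tubb3 at 0.36 and Tubb4b at 0.39. All 8 stayed higher in replicate 2 by CPM with or without TMM factors, whereas per spike-in count Tubb2a was lower in replicate 2 (log2 ratio -0.043) and Tuba1a and Tuba1b were nearly level at 0.036 and 0.034. That scaling moved the median of the 4408 genes to -0.15, and all 8 tubulin genes were above it. Beside this, all 8 neuronal markers were higher in replicate 2 by TPM, with a median log2 ratio of 0.22, whereas 7 were higher by CPM and 4 per spike-in count. Their part in the tubulin result was not tested.

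A threshold of 1.5-fold was passed by 1 of these 8 genes, Tubb4a, against 12.8% of the 4408 genes in either direction and 8.67% toward replicate 2. Many of the 4408 genes are at lower levels than these 8. At a minimum of 100 TPM, which all 8 exceed, 5.57% of genes passed in either direction. Tubb4a had 18851 expected counts in replicate 1 and 31301 in replicate 2. Per count in the library this is 1.53-fold (exact 95% interval 1.503 to 1.56), and by TPM it is 1.61-fold, a log2 ratio above that of 94.4% of the 4408 genes. Scaled by spike-in counts the log2 ratio of Tubb4a was 0.47 and no longer passed 1.5-fold. Oligodendrocyte markers moved the same way: all 10 were above 1 TPM in both areas, all 7 at a mean of at least 20 TPM were higher in replicate 2 under each scaling, and 6 of them passed 1.5-fold by TPM and 5 per spike-in count. Mbp, myelin basic protein, was at 360.4 and 498 TPM in replicates 1 and 2. The part of these cells in the level of Tubb4a was not tested.

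Tubb2b went the other way. Its expected count of 237 in replicate 1 and 98.6 in replicate 2 was 2.61-fold higher in replicate 1 per count in the library (exact 95% interval 2.06 to 3.34), and its TPM was 2.49-fold higher there. This direction and a difference beyond 1.5-fold held under each scaling tried. Among 7337 protein-coding genes at a mean of 1 to under 20 TPM, 19.5% were more than 1.5-fold higher in replicate 1, and 7.36% had a log2 ratio at or below that of Tubb2b. The 5 immature-neuron markers summed to 21.5 TPM in replicate 1 and 10.4 TPM in replicate 2, with Neurod1, a transcription factor of young neurons, at 6.81 and 1.95 TPM and Sox4 at 3.26 and 1.72 TPM. The microglial and endothelial sums were also higher in replicate 1, the latter at 138 and 98.2 TPM, though of its 2 genes at the minimum 1 was higher in each area. The sums of the other marker lists were higher in replicate 2, among them oligodendrocyte precursors at 10.5 and 32.8 TPM and astrocytes at 1369 and 1643 TPM. Of the 5 precursor markers only 1 was at 1 TPM or more in both areas, and Pdgfra was at 0.71 TPM in each. The GABAergic sum was higher there with Sst, at 194 and 2859 TPM, while Pvalb and Gad1 were lower there. The part of any of these cells in the level of Tubb2b was not tested. For Tuba1c the count ratio of replicate 2 to replicate 1 was 1.58 per count in the library, with an exact 95% interval of 0.380 to 7.87 that leaves its direction undetermined.

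**Figure D4:**
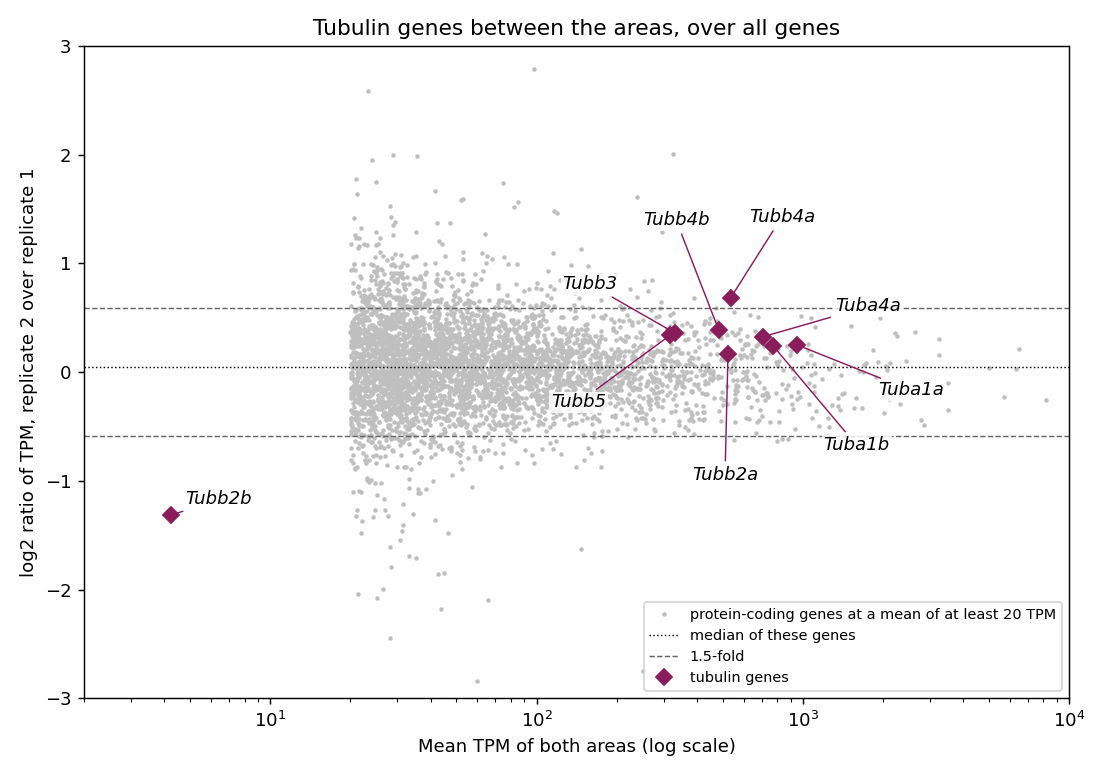
Log2 ratio of TPM, replicate 2 over replicate 1, against the mean TPM of both areas (log scale), for the tubulin genes of at least 1 TPM (diamonds) over 4408 protein-coding genes (grey dots, 12 of them beyond the plotted range). The dotted line is the median of the grey genes, 0.050, and the dashed lines are 1.5-fold: by TPM the 8 abundant tubulin genes lie above the dotted line, Tubb4a alone of them lies above the upper dashed line (not so per spike-in count, at 0.47), and Tubb2b lies below the lower one.

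The other genes of the tubulin family were low or absent. Tuba8, an alpha isotype, was at 14.4 and 11.7 TPM in replicates 1 and 2, and Tubb6, a beta isotype, was at 1.46 and 2.98 TPM. Tuba3a, Tuba3b, Tubal3 and Tubb1, the last a beta isotype of platelets, had no count in either area, where 3 counts correspond to 0.115 and 0.106 CPM, counts scaled to the library total. Gamma tubulin, which nucleates microtubules, was led by Tubg1 at 53.8 and 60.3 TPM and Tubg2 at 43.0 and 46.9 TPM, both higher in replicate 2 by TPM and lower there per spike-in count. Tubd1 was at 2.49 and 3.68 TPM.

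Genes that fold tubulin were expressed as complete sets. New tubulin passes from prefoldin to the CCT chaperonin and then to the tubulin cofactors, which assemble the dimer. All 8 CCT subunits were above 1 TPM in both areas, led by Tcp1 at 174 and 191 TPM, Cct8 at 156 and 184 TPM and Cct7 at 142 and 146 TPM in replicates 1 and 2. At a mean of at least 20 TPM, 5 of 8 CCT genes were higher in replicate 2 by TPM (55.7% of all genes at the minimum), 3 by CPM and 1 per spike-in count, and none passed 1.5-fold under these scalings. All 6 prefoldin genes were above 1 TPM, led by Pfdn5 at 467 and 406 TPM, and 3 were higher in each area by TPM and CPM, with 1 higher in replicate 2 per spike-in count. All 7 cofactor genes were above 1 TPM. Tbca, which takes up beta tubulin, was at 219 and 150.4 TPM, Tbcb, which takes up alpha tubulin, at 161 and 199 TPM, and the small GTPase Arl2 at 141 and 149 TPM. By TPM no chaperonin, prefoldin or cofactor gene at the minimum passed 1.5-fold, although Tbca did by CPM and per spike-in count, higher in replicate 1. Their median log2 ratios were 0.066, 0.076 and 0.075, against 0.33 for the 8 tubulin genes and 0.050 for all genes at the minimum.

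Enzymes that act on the tails ranged from no count to levels like those of the chaperones. Ttl, the ligase that puts the final tyrosine back, was at 13.7 and 8.94 TPM. Svbp, the partner of the vasohibins that remove it, was at 37.0 and 36.6 TPM, while the vasohibin Vash2 was at 0.48 and 1.88 TPM. The other vasohibin of the list, Vash1, named after its values were seen, was at 0.48 and 0.34 TPM. Of the glutamylation genes 12 of 16 were above 1 TPM in both areas. They were led by the polyglutamylase subunits Nicn1 at 106 and 110.2 TPM and Tpgs1 at 112 and 100.1 TPM, and by the deglutamylase Agtpbp1 at 99.1 and 102 TPM. The glycylation enzymes, which serve mainly cilia, were at or near the limit, with Ttll3 at 1.32 and 2.10 TPM and Ttll8 listed with 0 and 2 counts, and Ttll10 without a count.

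Acetylation of alpha tubulin is a mark of long-lived microtubules, and both genes of its list at the minimum were more than 1.5-fold higher in replicate 2 by TPM, beside 8.67% of the 4408 genes, with only Sirt2 past that by CPM and neither per spike-in count. The acetyltransferase Atat1 was at 20.7 TPM in replicate 1 and 35.0 TPM in replicate 2. The deacetylase Sirt2, a gene also known for its high level in oligodendrocytes, was at 43.4 and 68.5 TPM. The deacetylase Hdac6, below the minimum, was at 5.71 and 10.3 TPM. The part of oligodendrocytes in these levels was not tested.

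Tubulin also governs its own supply, and other proteins govern how it polymerises. Ttc5, which binds nascent tubulin when free dimer is in excess and starts the decay of the mRNA being translated, was at 29.1 and 27.0 TPM. Its partners were lower, Scaper at 6.0 and 6.49 TPM and Cnot11 at 6.15 and 12.7 TPM, and for Cnot11 the ratio of replicate 2 to replicate 1 was 2.07-fold by TPM but 1.44-fold per count. The stathmins, which sequester tubulin dimers, included genes as abundant as tubulin itself: Stmn1 was at 2296 and 2973 TPM, Stmn3 at 1688 and 1691 TPM and Stmn2 at 554 and 561 TPM. All 4 stathmins were higher in replicate 2 by TPM, with a median log2 ratio of 0.20, but Stmn2 and Stmn3 were lower there by CPM and per spike-in count. Of 7 plus-end genes at the minimum 4 were higher in replicate 2 by TPM and CPM, and 1 per spike-in count, beside 55.7%, 48.3% and 32.5% of the 4408 genes by TPM, by CPM and per spike-in count. The end-binding gene Mapre3 was at 39.4 and 61.2 TPM, with Mapre1 at 49.4 and 56.1 TPM and Mapre2 at 48.2 and 47.9 TPM. Among the severing enzymes Katnal1 was at 17.1 and 26.9 TPM and Katna1 at 7.07 and 10.2 TPM.

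Over all these lists 44 genes were at the minimum, of which 28 were higher in replicate 2 by TPM, 23 by CPM and 10 per spike-in count, where the 4408 genes gave 55.7%, 48.3% and 32.5%. Their median log2 ratio of TPM was 0.067, and by TPM 5 passed 1.5-fold, all toward replicate 2: Atat1, Sirt2, Stmn4, Mapre3 and Katnal1. The 5 genes that passed by TPM are 11.4% of the 44 genes, beside 8.67% of the 4408 genes. Per spike-in count only Tbca passed, toward replicate 1. Stmn4, at 39.9 and 63.2 TPM, was named after its values were seen.

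**Figure D5:**
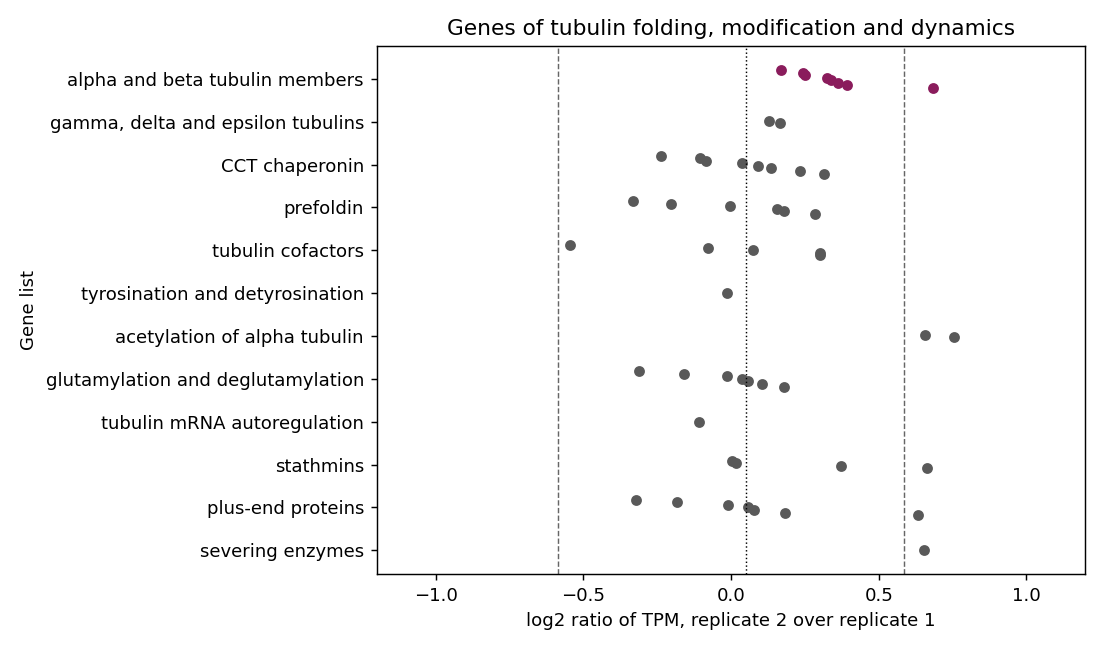
Log2 ratio of TPM, replicate 2 over replicate 1, for each gene at the minimum of 20 TPM, by list, with the 8 tubulin genes in the top row. The dotted line is the median of all genes at the minimum, 0.050, and the dashed lines are 1.5-fold: by TPM the tubulin genes all lie to the right of the dotted line (per spike-in count Tubb2a was lower in replicate 2), while the chaperonin, prefoldin and cofactor genes lie on each side of it within the dashed lines.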

How the data were processed

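RNA of 2 laser-captured layer 5 areas was sequenced, per the labels with a protocol of the Smart-seq type. The deposited gene and transcript tables, in the layout of RSEM, give expected counts, in which reads that fit several features are divided among them by the authors, with a posterior SD. The deposited TPM is scaled by the authors to a fixed sum over all features, spike-ins and mitochondrial genes included, beside a posterior mean and its interval. The deposited transcript tables give each transcript's percent of its gene. Assembly (mm10) and annotation (M4) are per the deposited text files, and the aligner, program version and strand setting are not given in the sources used here.

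Symbols, positions and sequences came from GENCODE M21 of GRCm38, the same assembly: 42462 of 43346 Ensembl rows had a symbol, and of 139 list genes all but Matcap1 matched. A chi-square of 68.5 per degree of freedom, over 14067 genes summing to 50 counts or more, set the libraries apart. Depth was 26059117 and 28276843 counts in all. The tables count reads, not molecules, so exact intervals and the floor of 3 counts cover counting error only.

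Members and lists were chosen with earlier results of these data known. All 10 members were named, and from each pathway or marker list up to 3 genes of highest mean TPM, pathway genes beyond 2-fold whose mean was 5 TPM or more, and all other alpha and beta tubulin genes. Some list genes so named are given only in their sums, and some items are not reported here. Areas were compared by ratios against genes with a mean of 20 TPM or more and 100 or more counts in sum. Shared windows of 100 bases were counted on each member's leading transcript. The ratios, calls and count intervals were tested on simulated counts with counting error only. That test leaves out the spread between real areas, so it does not show how often unchanged genes pass here. Expected counts were rounded for the TMM factors of edgeR 4.0.16 (R 4.3.3). The rest ran in Python 3.11.15 with biopython 1.88, matplotlib 3.10.9, scipy 1.17.1, pandas 2.3.3 and numpy 2.4.6.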

Additional observations from a re-analysis of the deposited data

How the results depend on the processing

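Of 27 alternatives that kept both areas, for the results that answer a comparison, 19 gave values within the spread between the areas or the same count. For the other values recomputed, some of them with 1 area left out, 141 alternatives gave the same, 64 moved and 1 reversed. The moved ones included log2 ratios of members by CPM, and the reversed one was that of Tubb2a per spike-in count. Leaving out an area says nothing about stability with 2 areas, since it gives the value of the other. The share of Tuba1a in alpha tubulin, 39.0%, was 39.7% over protein-coding transcripts only and 36.7% on expected counts. On expected counts the share of Tubb2a in beta tubulin was 19.5% and that of Tubb4a 27.9%, from 24.1% each, and the ratio of beta to alpha was 1.01 from 0.898. Counts are not divided by length, so long transcripts weigh more. Summed tubulin TPM, 4629, was 7299 when rescaled over nuclear protein-coding genes. The members beyond 1.5-fold were 2, Tubb4a and Tubb2b. Beside them, 8.67% of the 4408 genes passed toward replicate 2, and 19.5% of the 7337 genes at 1 to under 20 TPM toward replicate 1. Tuba1c, 1.67-fold higher in replicate 2 by TPM on only 3.76 and 6.46 counts, was not counted among these 2. With a threshold of 2-fold 1 remained, Tubb2b, and with counts per spike-in count, an alternative chosen after seeing the data, also 1, Tubb2b. That scaling gave a log2 ratio of -0.043 for Tubb2a in place of 0.17, and the cause was not tested. For the 44 pathway genes the count higher in replicate 2 went from 28 to 10 and the count beyond 1.5-fold from 5 to 1 with spike-in counts, also chosen after seeing the data. The share of genes beyond 1.5-fold in either direction was 12.8%, but 5.57% at a minimum of 100 TPM and 36.9% with no minimum. No paired analysis was possible because the libraries form 1 group. Depth limits Tuba1c, at 3.76 and 6.46 expected counts, and 1 library an area leaves no measure of error within an area.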

Other observations

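Tube1, an epsilon tubulin of centrioles, was listed with 112 counts in replicate 1 and 1 count in replicate 2 (1.84 and 0.02 TPM), and was chosen after its values were seen. Vash2 had 39 and 159 counts in replicates 1 and 2, and Ttll4, a polyglutamylase chosen after its values were seen, had 2.72 and 6.51 TPM from nearly equal counts of 225 and 243.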
